A study of Homo sapiens with 17 samples.

Results

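The regulators of G protein signalling (RGS) examined here were 10 listed genes, RGS1, RGS2, RGS3, RGS13, RGS16 and RGS18 of the R4 subfamily, RGS10 and RGS14 of the R12 subfamily, and RGS17 and RGS19 of the RZ subfamily. They are 10 of the 63677 gene identifiers in each count file. The family was chosen by measured values, as RGS16 was lower and RGS17 higher with A-485 in Karpas-422, so the members' values in that comparison are given as a description without a test. RNA was sequenced from 2 established human B cell lymphoma lines, WSU-DLCL2 and Karpas-422, in 5 groups of 3 libraries. Karpas-422 was given A-485, an inhibitor of the acetyltransferase activity of p300 and CBP, for 48 h, or was the control. WSU-DLCL2 was the control, was given A-485 for 48 h, or consisted of 3 clones labelled as knockouts of BCL11A, a zinc finger repressor of transcription. The treatment entries call the controls untreated while their count files are named DMSO, a vehicle, and they are called untreated here; no vehicle is named for the clones. No labelled group was an unedited clone, so the clones were set against the parental line. No label says that libraries of a group came from separate cultures, so p-values reflect how far such libraries scatter, which may be technical scatter, or how far the clones do.

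RGS proteins switch off heterotrimeric G proteins. A receptor that has bound its ligand loads the G alpha subunit with GTP, and the RGS domain speeds up the hydrolysis of that GTP, so the signal of chemokine and other G protein-coupled receptors ends sooner. In B cells RGS1 and RGS13 are known for restraining responses to chemokines, and RGS13 is a gene of germinal centre B cells.

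The sequences before the start of 4 members are shown for the patterns described further on. RGS16 and RGS17 lay at opposite ends of the A-485 comparison in Karpas-422, and RGS1 and RGS2 were the members with unadjusted p-values under 0.05 in the clones. Each line is the 250 bases before the RefSeq start on GRCh38.p14, read 5′ to 3′ along the gene's strand, with capitals for matches to the motifs searched. RGS16 is from chr1:182604390-182604639 (minus strand), RGS17 from chr6:153131283-153131532 (minus strand), RGS1 from chr1:192575523-192575772 (plus strand) and RGS2 from chr1:192808789-192809038 (plus strand).
RGS16: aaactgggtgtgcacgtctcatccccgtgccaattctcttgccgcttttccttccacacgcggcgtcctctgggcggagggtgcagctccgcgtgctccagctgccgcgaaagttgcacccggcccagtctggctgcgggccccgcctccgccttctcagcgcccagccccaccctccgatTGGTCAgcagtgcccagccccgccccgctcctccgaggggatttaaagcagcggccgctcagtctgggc
RGS17: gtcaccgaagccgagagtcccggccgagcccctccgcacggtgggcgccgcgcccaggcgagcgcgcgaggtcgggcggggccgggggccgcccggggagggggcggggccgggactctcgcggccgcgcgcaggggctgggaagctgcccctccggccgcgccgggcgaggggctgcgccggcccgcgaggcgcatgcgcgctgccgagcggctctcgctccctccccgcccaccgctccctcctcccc
RGS1: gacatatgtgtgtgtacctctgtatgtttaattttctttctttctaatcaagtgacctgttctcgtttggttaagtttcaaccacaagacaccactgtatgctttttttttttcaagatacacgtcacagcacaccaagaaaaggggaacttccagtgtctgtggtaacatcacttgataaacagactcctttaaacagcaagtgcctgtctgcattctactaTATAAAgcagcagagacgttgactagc
RGS2: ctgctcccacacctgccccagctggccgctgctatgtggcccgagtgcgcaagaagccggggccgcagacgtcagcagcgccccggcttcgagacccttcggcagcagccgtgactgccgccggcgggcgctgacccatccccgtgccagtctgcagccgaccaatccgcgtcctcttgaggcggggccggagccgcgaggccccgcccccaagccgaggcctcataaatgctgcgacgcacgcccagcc

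The motifs searched on both strands were TGACGTCA (the full cyclic AMP response element), TGANTCA (AP-1), ATGCAAAT (the octamer), TGACCA (the core bound by BCL11A), TATAAA and CACGTG (an E-box). RGS16 held 1 TGACCA, on the opposite strand and so printed as its reverse complement, 69 bases before the start. TGACCA occurred in 9.19% of the 35116 promoter windows of this length. RGS1 held 1 TATAAA, 27 bases before the start, a motif found in 10.7% of windows. RGS17 and RGS2 held none of the motifs in these windows. RGS17 had 42 CpG dinucleotides and 84.0% GC, RGS2 28 and 72.8%, RGS16 22 and 68.4%, and RGS1 3 and 39.2%, against medians of 11 CpG and 58.0% GC over all windows. A match is only a run of letters, and no binding was measured.

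The libraries were of 2 kinds. All 6 Karpas-422 libraries and the 3 WSU-DLCL2 A-485 libraries held 6689320 to 8897051 counts in genes, and 43.0% to 55.5% of their reads had no unique alignment. The untreated WSU-DLCL2 libraries and the clones held 21233752 to 37286727 counts, with 7.73% to 9.24% not unique. In WSU-DLCL2 the kind of library and A-485 therefore cannot be told apart, and that pair of groups was not tested. MS4A1, which encodes CD20, had 4.32 to 42.9 CPM (counts scaled to 1000000 counts in genes per library) in the first kind and 2254 to 3760 in the second. Untreated WSU-DLCL2 replicate 3 has a title that gives the line alone, a file named DMSO and a treatment entry of A-485. Its level differed over 2-fold from the mean of replicates 1 and 2 for 8 of the 10 members, and over 2-fold from replicate 1 for 15.9% and from replicate 2 for 16.5% of genes, against 0% between replicates 1 and 2. All 12 B cell markers had counts in every group. BCL11A RNA was 58.8, 69.6 and 51.9 CPM in the clones and 46.8, 45.7 and 73.5 CPM in the untreated libraries, so gene counts do not show the edit.

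In untreated Karpas-422, counts of the family were mostly RGS16, a regulator of Gi and Gq signalling. RGS16 had 175, 168 and 171 CPM. Per kilobase of exon it stood first at 70.7 ± 1.43 CPM per kb (SD, n = 3), which was 54.95% of the members' sum. RGS2, which acts mainly on Gq, followed at 25.3 ± 1.73, RGS18, known from platelets, at 22.0 ± 0.728, and RGS13 at 8.44 ± 0.673 CPM per kb, with no overlap between neighbours in this order. RGS10, RGS14, RGS19 and RGS17 lay between 1.23 and 0.233 CPM per kb, where the ranges of RGS14, RGS19 and RGS17 overlapped from one to the next. RGS1 had no count in any of the 6 Karpas-422 libraries, which allows up to 0.131 CPM in the untreated and 0.119 CPM in the A-485 group. RGS3 had 0, 0 and 0.144 CPM untreated and 0 in all A-485 libraries. All Karpas-422 libraries were of the first kind, in which WSU-DLCL2 with A-485 had 0.282 to 0.744 CPM of RGS1. Untreated WSU-DLCL2, of the second kind, had 3.20 to 40.7 CPM. The part of the library kind in these zeros was not tested.

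**Figure D1:**
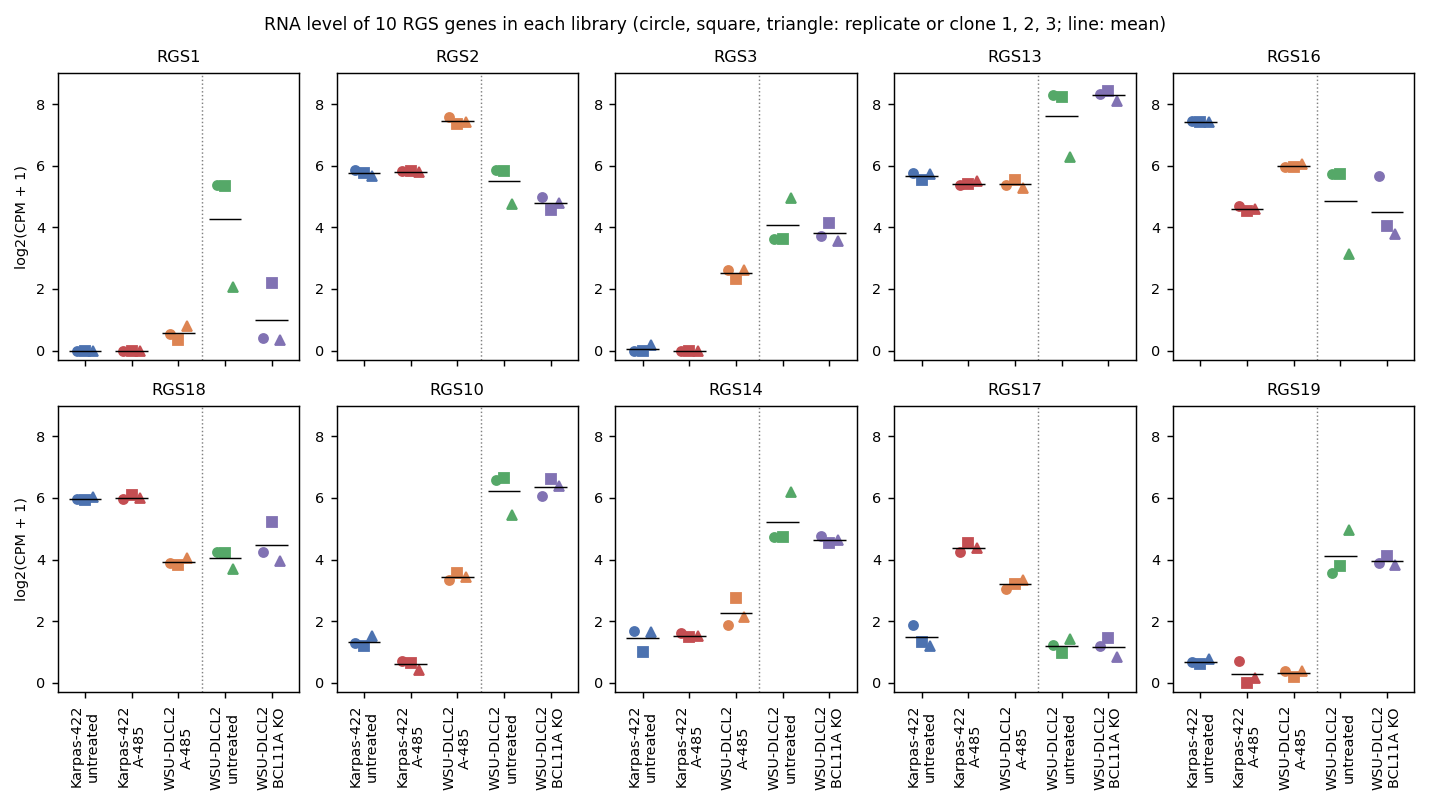
RNA level of each of the 10 RGS genes as log2(CPM + 1) in all 15 libraries. Circles, squares and triangles are replicates or clones 1, 2 and 3, lines are group means, and the dotted line parts the 3 shallow groups on the left from the 2 deep ones on the right. RGS16 was highest in untreated Karpas-422, RGS17 was highest in Karpas-422 with A-485, and the triangle of untreated WSU-DLCL2 stood apart from its group for most genes.

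With A-485 the order in Karpas-422 was RGS2 at 26.3 ± 0.376, RGS18 at 22.7 ± 1.05, RGS16 at 9.64 ± 0.607, RGS13 at 7.07 ± 0.332 and RGS17 at 2.51 ± 0.274 CPM per kb. RGS16 had moved from the top to the third place, and its share of the members' sum was 13.9%. Each of these 5 genes was apart from the next in this order.

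RGS16 had 25.02, 22.1 and 23.1 CPM with A-485, against the 168 to 175 CPM of the untreated libraries. All 3 treated libraries were far below all 3 untreated ones. The log2 fold change fitted with TMM scaling was −3.28 ± 0.07 (SE), or 9.72-fold lower, and mean CPM was 7.33-fold lower. Among R4 members the next in size was RGS13, with 40.6, 40.9 and 44.1 CPM treated and 52.9, 45.4 and 51.7 CPM untreated. Its groups did not overlap and its log2 fold change was −0.66 ± 0.08.

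RGS2 had 55.3, 55.6 and 54.1 CPM with A-485 and 56.4, 53.1 and 49.2 CPM without. RGS18 had 61.0, 66.8 and 63.0 CPM with A-485 and 61.8, 59.7 and 63.7 CPM without. Both pairs of groups overlapped in CPM, and the direction depended on the scaling. With TMM scaling, which assumes that most genes do not change, the log2 fold changes were −0.35 ± 0.07 for RGS2 and −0.36 ± 0.07 for RGS18. Scaled by library size alone they were 0.057 and 0.045. That scaling moved the median of all genes by 0.41, and 73.8% of called genes were then higher, against 52.7% with TMM.

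In the R12 subfamily, RGS10, a small regulator of Gi signalling, had 0.642, 0.562 and 0.349 CPM with A-485 and 1.47, 1.28 and 1.87 CPM untreated. The treated libraries were all lower, by a log2 fold change of −1.94 ± 0.39, on few counts. RGS10 had enough counts for the count filter in the untreated libraries alone, so only a fall could be found. RGS14, a scaffold that also binds Ras-family proteins, had 2.05, 1.80 and 1.86 CPM treated and 2.20, 1.02 and 2.16 CPM untreated. Its groups overlapped, with −0.31 ± 0.31 under TMM and 0.089 by library size alone.

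In the RZ subfamily, RGS17, a regulator of Gz and Gi best known from brain, went the other way from RGS16. It had 17.8, 22.1 and 19.6 CPM with A-485 and 2.69, 1.54 and 1.30 CPM untreated. Every treated library was above every untreated one. The log2 fold change was 3.00 ± 0.22 under TMM, or 7.99-fold higher, and mean CPM was 10.8-fold higher. RGS19, which binds G alpha i, had 0.642, 0 and 0.116 CPM treated and 0.611, 0.512 and 0.719 CPM untreated, and was too low to be tested.

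Of the 10 members, 7 had enough counts to be fitted in Karpas-422, and as a description 6 of these lay past an adjusted p of 0.05, 1 higher and 5 lower. That count holds RGS16 and RGS17, whose directions chose the family, and RGS10, which could only be lower. It is therefore no test of the members, and nothing is read from it. Over all 11846 genes fitted, 71.4% lay past it, 37.6% higher and 33.7% lower. Groups did not overlap in CPM for 4 of the 7 (RGS13, RGS16 and RGS10 lower, RGS17 higher), against 76.8% of all genes, 56.2% higher and 20.5% lower. By library size alone 3 members were lower and 1 higher. RGS10, RGS16 and RGS17 are in these counts too, and nothing is read from them. The median log2 fold change of the 7 was −0.36, beside 0.08 over all genes. In whole cultures, fewer cells of a type and less RNA per cell cannot be told apart.

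Among the 11 other RGS genes, 2 were fitted in Karpas-422 and both were lower. RGS8, a further R4 gene and the neighbour of RGS16, had 4.15, 6.79 and 7.77 CPM untreated and 0, 0.112 and 0.233 CPM with A-485. Its 3 counts against 141 gave a ratio of 51.8 with a 95% counting interval of 17.4 to 254. Only its untreated libraries had enough counts for the count filter, so only a fall could be found. RGS5 had 4.75, 3.597 and 3.61 CPM treated and 8.18, 4.99 and 5.90 CPM untreated, a log2 fold change of −1.09 ± 0.21. RGS21 had no count in any library.

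Neighbouring genes were looked at after the RGS values were seen, in the gene order of GRCh38. On chromosome 1 RGS16 is followed by RGS8, NPL and DHX9, and the genes on its other side are not given here. DHX9, an RNA helicase, was lower too, with a log2 fold change of −1.18 ± 0.09, at 874 to 894 CPM against 1312 to 1634 CPM. Of all genes fitted, 33.7% were called lower. NPL had 0.337 to 0.898 CPM with A-485 and 0.256 to 0.611 CPM untreated, which overlapped.

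RGS18, RGS21, RGS1, RGS13 and RGS2 follow each other on the same chromosome. In untreated Karpas-422, RGS18, RGS13 and RGS2 had 45.4 to 63.7 CPM while RGS1, between RGS18 and RGS13, had no count. On chromosome 6 next to RGS17, MTRF1L had 4.72 to 5.78 CPM with A-485 against 1.10 to 2.45 CPM (1.27 ± 0.28) and FBXO5 18.99 to 24.1 CPM against 11.9 to 12.7 CPM (0.41 ± 0.13), both smaller than RGS17, while OPRM1 and VIP had no count in any library.

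**Figure D2:**
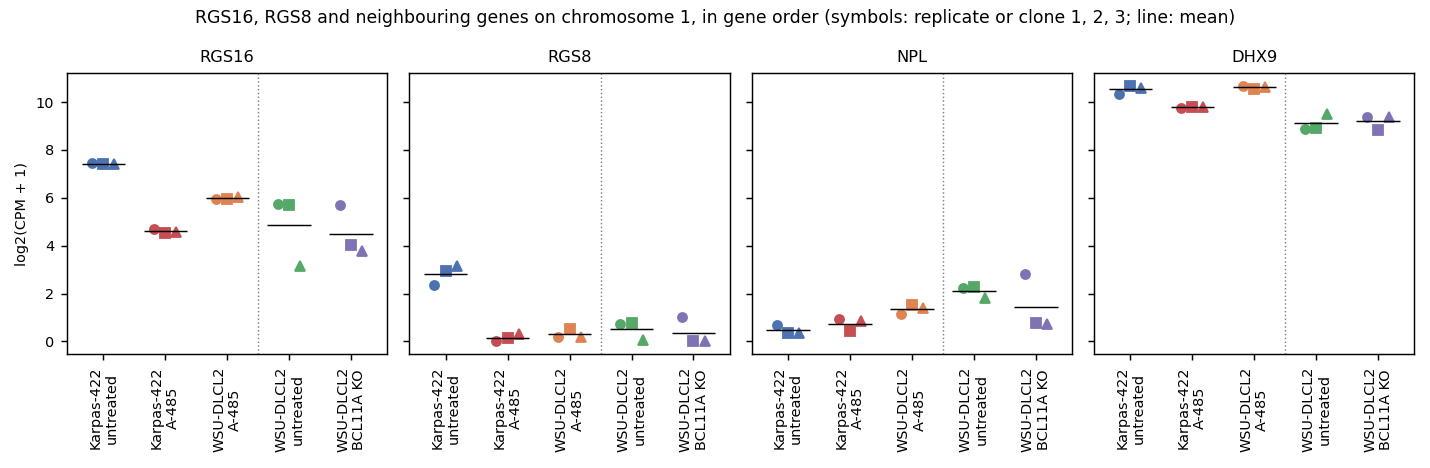
Log2(CPM + 1) of RGS16, RGS8, NPL and DHX9, in their order along chromosome 1, in all 15 libraries. Symbols are replicates or clones 1, 2 and 3 and lines group means; the dotted line parts shallow from deep groups. In Karpas-422 with A-485, RGS16, RGS8 and DHX9 lie below the untreated libraries, and among the clones clone 1 is highest for RGS16, RGS8 and NPL.

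The other genes of the pathway were read with edgeR's quasi-likelihood test and Benjamini-Hochberg adjustment over all genes. Of 13 G alpha genes 8 were tested, and 3 rose and 3 fell (4 and 3 by library size alone). GNA13, the G alpha 13 subunit that holds back B cell migration, rose from 1696 ± 93.9 to 3218 ± 76.1 CPM (log2 fold change 0.52 ± 0.05, adjusted p = 3.23e-07). GNAZ, a G alpha subunit on which RZ proteins act, fell by 0.64 ± 0.06 on the log2 scale and GNAI3 fell by 0.55 ± 0.05. Of 15 G beta and gamma genes 6 were tested, and 4 fell and none rose. GNG2 fell by 1.35 ± 0.10, GNGT2 fell by 0.84 ± 0.11 and GNB1 fell by 0.72 ± 0.05. By library size alone 2 beta or gamma genes were higher and 4 lower.

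Of 25 B cell G protein-coupled receptors only 4 had enough counts, 2 of which fell and 1 rose (2 and 2 by library size alone). P2RY8, a receptor that signals through G alpha 13, had 994, 979 and 1050.2 CPM untreated and 252, 235 and 242 CPM with A-485, and fell by 2.46 ± 0.06 (adjusted p = 3.26e-13 by the same edgeR test). S1PR2, which uses the same G protein, had 22.6, 23.2 and 35.4 CPM untreated and 8.86, 9.78 and 9.08 CPM treated, and fell by 1.95 ± 0.19. ADORA2A rose by 2.40 ± 0.46, but it had enough counts for the count filter with A-485 alone, so only a rise could be found. CXCR4, CXCR5 and CCR7 had at most 0.128 CPM in any Karpas-422 library. The part of the library kind in these low values was not tested.

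Among 13 other genes with an RGS-type domain 11 were tested, and 5 rose and 3 fell. ARHGEF1, an RGS-domain exchange factor downstream of G alpha 13, rose from 4.33 ± 1.09 to 20.2 ± 0.851 CPM (1.81 ± 0.16) and the sorting nexin SNX13 rose from 15.8 ± 1.63 to 51.4 ± 3.56 CPM (1.29 ± 0.10). The receptor kinase GRK6 fell by 1.75 ± 0.19. By library size alone 7 genes of the list were higher and 3 lower. Of 23 effectors and regulators 8 were tested, with GPSM2 (from 14.4 ± 1.58 to 38.2 ± 1.39 CPM) and the arrestin ARRB2 (1.09 ± 0.23) as the 2 that rose and the kinase subunit PIK3CG among 2 that fell, by 1.44 ± 0.20. By library size alone 3 effectors were higher and 1 lower. These counts stand beside the 71.4% of all genes that passed. The share of reads counted as lying in no feature was 8.69 ± 0.375% with A-485 and 3.92 ± 0.538% without. All reads not in genes, those without a unique alignment included, were 60.9% to 61.2% with A-485 and 62.4% to 62.5% without. The part of these shares in the results was not tested.

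Markers of other cells were present in Karpas-422. Of 11 T and NK cell markers 6 had counts, summing to 638 to 682 CPM untreated and 549 to 588 CPM with A-485, mostly CD3G, with CD8A, CD2, IL7R, GNLY and KLRD1 at 0. Of the 3 tested, CD3G and CD3D fell and CD247 rose from 5.05 ± 2.52 to 22.9 ± 2.46 CPM. Of 7 platelet markers 4 had counts, summing to 148 to 169 and 142 to 148 CPM, with PF4, PPBP and GP9 at 0. ITGB3 made up most of that sum and fell from 147 ± 10.6 to 116 ± 3.04 CPM, while GP1BA rose from 10.4 ± 1.85 to 24.3 ± 0.914 CPM and TUBB1 from 1.41 ± 0.600 to 3.58 ± 0.486 CPM. Of 10 myeloid markers 5 had counts, at 32.2 to 39.9 and 43.5 to 48.9 CPM, with ITGAM, S100A8, S100A9, MPO and FCGR3A at 0. SPI1 made up most of that sum, at 33.8 ± 3.09 and 38.6 ± 2.02 CPM, and did not pass. CD33 rose from 2.67 ± 1.45 to 7.08 ± 0.914 CPM. Of 9 epithelial and fibroblast markers DCN and FN1 had counts, summing to 383 to 431 and 186 to 203 CPM. DCN fell from 398 ± 25.8 to 186 ± 8.18 CPM and FN1 rose from 2.65 ± 0.858 to 8.65 ± 0.885 CPM. Their part in the RGS values was not tested.

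The lines were compared under A-485, in the shallow libraries. These stood apart by line too, with 14.1% to 14.6% of reads unaligned in WSU-DLCL2 and 2.51% to 2.86% in Karpas-422, and 69.4% to 70.2% against 60.9% to 61.2% not in genes. The part of these shares in the differences was not tested, and line and library cannot be told apart. Of 12472 genes tested 72.4% differed by edgeR's quasi-likelihood test. RGS16 and RGS17 are described without a test here, since the Karpas-422 A-485 libraries also chose the family. Of the 8 other members 6 were tested, and 4 were higher and 1 lower in WSU-DLCL2, against 34.3% higher and 38.1% lower over all genes. Groups did not overlap for those 5 members, against 75.1% of genes, 32.6% higher and 42.6% lower. RGS3 and RGS10, among the 4 that were higher, had enough counts for the count filter in WSU-DLCL2 alone. Their direction was therefore set in advance, and their p-values are not read.

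RGS2 was the leading member of WSU-DLCL2 with A-485, at 189.7, 162 and 168 CPM or 82.7 ± 6.91 CPM per kb, which was 63.1% of the members' sum. It was 3.32-fold higher than in treated Karpas-422 (log2 difference 1.73 ± 0.07, adjusted p = 4.35e-13 by edgeR), with no overlap. RGS16 came next per length at 25.7 ± 1.01 CPM per kb, then RGS10 at 7.94 ± 0.702 and RGS13 at 6.97 ± 0.623, whose ranges overlapped, and RGS18 at 5.03 ± 0.436.

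RGS10 had 9.12, 10.9 and 9.83 CPM, 19.7-fold above treated Karpas-422 (4.30 ± 0.27), where the group held 13 counts. RGS3, which has long and short forms, had 5.08, 3.95 and 5.06 CPM. Its 96 counts against 0 made it at least 39.5-fold higher, with the floor of 3 counts taken over the group. RGS14 had 2.69, 5.79 and 3.42 CPM and was higher by 1.14 ± 0.30 (adjusted p = 0.00234 by edgeR). All 3 genes were above every treated Karpas-422 library.

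RGS18 was the 1 member that was lower, at 13.8, 13.1 and 15.5 CPM, or 4.28-fold below treated Karpas-422 (−2.10 ± 0.10, adjusted p = 1.50e-12 by edgeR). The 7 platelet markers summed to 10.1 to 12.3 CPM in treated WSU-DLCL2 and 142 to 148 CPM in treated Karpas-422, most of which was ITGB3, at 0.194 ± 0.0768 against 116 ± 3.04 CPM. GP1BA was lower as well, TUBB1 overlapped between the lines, and PF4, PPBP and GP9 were at 0 in both. Their part in the difference of RGS18 was not tested. RGS13 had 40.8, 45.2 and 37.8 CPM, overlapping the 40.6 to 44.1 CPM of Karpas-422. Its difference was 0.05 ± 0.09 with a 95% interval of −0.12 to 0.23 (adjusted p = 0.592 by edgeR), and −0.021 by library size alone.

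RGS16 had 61.3, 60.7 and 65.2 CPM in treated WSU-DLCL2, above treated Karpas-422 by 1.49 ± 0.09 on the log2 scale. RGS17 had 7.18, 8.33 and 9.23 CPM, below it by a difference of −1.19 ± 0.14. RGS1 had 0.448, 0.282 and 0.744 CPM, and its 10 counts against 0 put it at least 4.11-fold higher, without a test. RGS19 had 0.299, 0.141 and 0.298 CPM and was not tested.

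In the deep libraries of WSU-DLCL2 the order of the members was different. Untreated, RGS10 led at 63.0 ± 24.9 CPM per kb, then RGS13 at 38.7 ± 22.3, RGS2 at 22.2 ± 8.41 and RGS16 at 15.3 ± 10.5, and the ranges of neighbours overlapped because of replicate 3. In the clones RGS10 at 65.6 ± 12.5 and RGS13 at 52.5 ± 5.73 CPM per kb led, with RGS2 at 12.8 ± 1.88 next.

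The clones labelled BCL11A knockout were compared with untreated WSU-DLCL2. With all 3 untreated libraries none of the 10 members passed the threshold, as was the case for 0% of the 16152 genes tested by edgeR's quasi-likelihood test. At an unadjusted p under 0.05 there were 1117 genes, 2 of them members (RGS1 and RGS2). RGS1 had enough counts for the count filter in every untreated library but not in every clone. Its p in this fit is not read as support. DESeq2 called 315 genes and limma-voom 2. For no member were all clones above or all below the 3 untreated libraries, against 16.6% of genes, 8.56% higher and 8.02% lower. The median log2 fold change of the members was −0.35, beside −0.01 over all genes.

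Without untreated replicate 3, 2.11% of 16607 genes passed, 0.422% higher and 1.69% lower, and 1 of the 10 members was among them. That member was RGS2, with 30.7, 22.9 and 26.7 CPM in the clones and 57.4, 55.9 and 26.1 CPM untreated. Replicate 3, at 26.1 CPM, lay among the clones. RGS2 fell by 1.09 ± 0.14 on the log2 scale, 2.12-fold, against untreated replicates 1 and 2 (adjusted p = 0.0212 by edgeR), and with all 3 libraries its log2 fold change was −0.80 ± 0.32 (adjusted p = 0.701 by edgeR).

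RGS1 had the widest difference, with 0.337, 3.52 and 0.268 CPM in the clones and 40.7, 39.4 and 3.20 CPM untreated. Clone 2 was above replicate 3, and the others were apart. Its log2 fold change was −4.35 ± 1.32 with all libraries (adjusted p = 0.530 by edgeR), and −4.85 ± 1.06 without replicate 3 (adjusted p = 0.121 by edgeR). Neither passed the threshold.

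RGS16 differed between the clones, with 50.3 CPM in clone 1, 15.4 in clone 2 and 12.8 in clone 3, against 51.8, 51.7 and 7.77 CPM untreated. Clone 1 was near untreated replicates 1 and 2, and its neighbours RGS8 (1.01 CPM, with 0 in clones 2 and 3) and NPL (6.10 CPM, with 0.688 and 0.656 in clones 2 and 3) were highest in clone 1 too. The log2 fold change of RGS16 was −0.51 ± 0.80, with a 95% interval of −2.09 to 1.06 (adjusted p = 0.908 by edgeR). RGS18 was highest in clone 2, at 36.5 CPM against 18.1 and 14.4 CPM in clones 1 and 3 and 17.98, 17.5 and 12.1 CPM untreated.

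RGS13 had 318, 341 and 274 CPM in the clones and 312, 298 and 76.9 CPM untreated, so that the groups were alike apart from replicate 3. Without that library its log2 fold change was 0.02 ± 0.09, with a 95% interval of −0.16 to 0.19 (adjusted p = 0.931 by edgeR). RGS10 had 66.0, 97.3 and 83.2 CPM in the clones and 94.7, 99.0 and 42.9 CPM untreated, which overlapped.

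RGS3, RGS14 and RGS19 were highest in replicate 3. RGS3 had 12.1, 16.7 and 10.8 CPM in the clones and 11.2, 11.2 and 30.2 CPM untreated, RGS14 had 26.2, 22.0 and 24.2 against 25.7, 25.9 and 71.7 CPM, and RGS19 had 13.7, 16.4 and 13.2 against 10.7, 12.9 and 30.3 CPM. RGS17 was low throughout, at 1.28, 1.75 and 0.775 CPM in the clones and 1.35, 0.965 and 1.70 CPM untreated. Adjusted p-values of the 8 members besides RGS1 and RGS2 were 0.818 to 0.981 by edgeR with all libraries. Without replicate 3 the groups did not overlap for 4 of 10 members (RGS1, RGS2 and RGS16 lower, RGS19 higher), against 40.5% of genes, 18.8% lower and 21.7% higher.

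**Figure D3:**
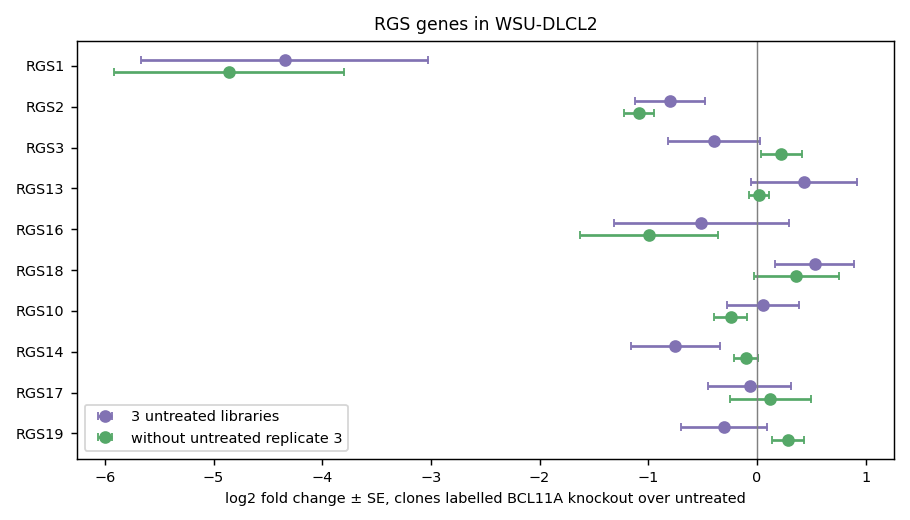
Log2 fold change of the 10 RGS genes in the 3 clones labelled BCL11A knockout over untreated WSU-DLCL2, with all 3 untreated libraries and without replicate 3. Points are edgeR fits and bars their SE. RGS1 lies at −4.35 and −4.85 with wide bars, RGS2 at −0.80 and −1.09, and the signs of RGS3, RGS10, RGS17 and RGS19 differ between the fits.

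Of the 25 receptors whose signals RGS proteins could limit, 13 were tested in the clones. None passed with all untreated libraries, 8 had an unadjusted p under 0.05, and the median log2 fold change was −1.15. Over all genes 1117 of 16152 had such a p, and the median was −0.01. Without replicate 3, 4 receptors fell and none rose by edgeR's quasi-likelihood test, against 1.69% lower and 0.422% higher over all genes. These counts and the median hold CCR7 and CXCR5, which could only fall, as described below. Nothing is therefore read from them about the receptors as a group. CXCR4, the receptor of the chemokine CXCL12, had 53.4, 61.2 and 39.4 CPM in the clones and 136, 137 and 81.1 CPM untreated, and fell by 1.42 ± 0.16 (adjusted p = 0.0184 by edgeR).

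CCR7, a lymph node homing receptor, had 0.0337, 0.172 and 0.0298 CPM in the clones and 2.11, 1.61 and 0.659 CPM untreated (−4.47 ± 0.53 without replicate 3). CXCR5, the follicle homing receptor, had 0.135, 0.0859 and 0.0298 against 1.35, 0.831 and 3.72 CPM (−3.68 ± 0.50 in the same fit). Both passed by edgeR without replicate 3. With all libraries the adjusted p of CCR7 and of CXCR5 was 0.209 by edgeR, and both passed by DESeq2. Both had enough counts for the count filter in the untreated libraries alone. Only a fall could therefore be found, and these tests of CCR7 and CXCR5 are not read as support. For CXCR4, CCR7 and CXCR5 all 3 untreated libraries, replicate 3 included, were above all clones. Groups did not overlap for 8 of the 13 receptors, against 16.6% of genes, 8.02% lower. CCR7 and CXCR5 are in that count too, so nothing is read from it. GPR183 fell by 2.96 ± 0.35 in the fit without replicate 3. That library had 0.424 CPM, among the clones' 0.388 to 0.945 CPM, and replicates 1 and 2 had 4.93 and 4.61 CPM. Of the beta and gamma genes, GNG7 had 0.404, 1.35 and 0.388 CPM in the clones and 3.14, 2.95 and 21.4 CPM untreated (−3.65 ± 0.997, adjusted p = 0.444 by edgeR with all libraries, though past the threshold by DESeq2). None of the tested G alpha, beta or gamma genes, effectors, other RGS genes or other RGS-domain genes passed in either edgeR fit. By smallest p with all libraries, the genes that led the other lists were RGS5 (−1.48 ± 0.46) and RGS12 (−1.09 ± 0.34), ARHGEF12 (−0.71 ± 0.20) and GRK4 (0.54 ± 0.20), GNA13 (−0.29 ± 0.10) and GNAZ (−1.15 ± 0.52), GNB5 (0.32 ± 0.13) beside GNG7, and PLCB3 (0.50 ± 0.26) and RIC8B (−0.21 ± 0.19), as log2 fold changes. P2RY8 was listed at 0 in all 6 deep libraries and at 634 to 796 CPM in treated WSU-DLCL2, so it differed between the kinds of library.

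Genes whose levels followed RGS16 and RGS17 over all 15 libraries were ranked by Pearson's r of log2(CPM + 1) among 9093 genes, as a description, since the points share the library kind and the treatment. For RGS17 the first 3 were IFT27 (0.987), LTB4R (0.985) and SLC2A11 (0.981). Like RGS17, all 3 had their highest group mean in Karpas-422 with A-485, LTB4R for example at 122 CPM against 30.5 CPM untreated. For RGS16 they were CTPS1 (0.921), PFDN2 (0.899) and RAB11A (0.890).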

How the data were processed

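The authors deposited whole-number counts of reads by gene in 15 files, 1 a library (17 sample records, as 3 runs of untreated WSU-DLCL2 replicate 3 share a file). STAR 2.5.3a, RSEM and GRCh37 (hg19) are named, per the submitters' processing notes; the files are named as htseq output; annotation, counting settings and strand were not given in the sources used here. Without strand, overlapping genes cannot be told apart. The 5 summary lines (27.3% to 70.2% of reads) stayed out of library sizes. Symbols matched 52526 of 63677 identifiers, and the rest held 0.862% of counts. Of 161 listed symbols 159 matched. Exonic lengths came from GENCODE 29, and promoters from RefSeq GRCh38.p14.

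Groups followed titles and, for the replicate with a conflicting treatment entry, the title alone. Each comparison was fitted on its own 6 libraries over all genes with edgeR 4.0.16 (R 4.3.3): TMM scaling, filterByExpr, robust quasi-likelihood test, two-sided, Benjamini-Hochberg threshold 0.05. SE is the log2 fold change over √F. Printed CPM are not TMM-scaled. The script was tested on simulated data. Alternatives were library sizes alone, DESeq2 1.42.0 and its size factors, limma-voom 3.58.1, no count filter, each library left out and a replicate block. The pathway genes named are the 3 of smallest p a list in Karpas-422 and 2 in the clones; CXCR4, GPR183 and neighbouring genes were chosen after their values were seen. The members and lists were chosen with earlier results of these data known. Replicate pairs had a chi-square per gene of at least 1.20, and none was counted as 1 library. The interval of the RGS8 ratio and the limits at 0 counts cover counting error only. Intervals of log2 fold changes were taken from the SE of the edgeR fit, so they include scatter between libraries or clones. They assume a normal distribution, which makes them too narrow for fits of so few libraries.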

Additional observations from a re-analysis of the deposited data

Results flagged for a closer look

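RGS16 differed in opposite directions with A-485 in the lines: every sample lay higher in WSU-DLCL2 and lower in Karpas-422. Its log2 ratio of mean CPM, A-485 over untreated, was 0.7512 in WSU-DLCL2, where all treated libraries (60.7 to 65.2 CPM) were above all untreated ones (7.77 to 51.8 CPM), and −2.873 in Karpas-422. Without untreated replicate 3, the library at 7.77 CPM whose treatment entry reads A-485, the WSU-DLCL2 ratio was 0.27, an alternative chosen after seeing the data. The difference was not tested, because in WSU-DLCL2 the treated libraries are of the shallow and the untreated ones of the deep kind, and kind and treatment cannot be told apart. Groups of 3 libraries were not searched for outliers.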

How the results depend on the processing

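In Karpas-422, scaling by library size alone turned RGS2 to 0.057, RGS18 to 0.045 and RGS14 to 0.089, and left 3 members lower in place of 5 and 2290 genes lower in place of 3998. Under A-485 the same scaling turned RGS13 to −0.021 between lines. In the clones, leaving out untreated replicate 3 turned RGS3 to 0.22, RGS10 to −0.24, RGS17 to 0.12 and RGS19 to 0.28. Without clone 2 RGS10 was −0.07, and without clone 3 RGS17 was 0.18. Over all fits that left out a library, RGS3 ranged from −0.63 to 0.22, RGS10 from −0.24 to 0.26, RGS17 from −0.36 to 0.18 and RGS19 from −0.56 to 0.28. The cause was not tested. Members called ranged from 0 to 1 over the fits that left out a library, all of them lower, genes called higher from 0 to 70 and lower from 0 to 281. DESeq2 called 60 genes higher and 255 lower, limma-voom 2 lower, and the fit without a count filter 1 higher and 19 lower. Replicate numbers were not taken as pairs: same-numbered libraries correlated at 0.0185, 0.0774 and −0.0480 in Karpas-422 and at −0.217, −0.132 and 0.00769 between lines. The replicate block gave 4346 genes higher and 3904 lower in Karpas-422, and 4115 and 4551 between lines. No paired analysis was possible in the clones because clone numbers are no replicate numbers. RGS1, RGS3 and RGS19 had too few counts to be tested in Karpas-422.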
